A study of Sus scrofa with 8 samples.

Results

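The genes described here are 10 factors that make or shape small and circular RNAs in the pig liver. They are DROSHA, DGCR8, XPO5, DICER1, TARBP2 and AGO2 of the microRNA (miRNA) pathway, and ADAR, DHX9, QKI and MBNL1, which are known to act on circular RNA (circRNA) formation. They were taken from the deposited mRNA table by gene symbol, and all 10 have an Ensembl identifier among its 21607 mRNA identifiers, of which 11654 have a symbol. Liver tissue came from 4 healthy sows of the Yana breed, 2 young sows at 180 days of age and 2 old sows at 8 years of age. Per the paper, the young sows had never given birth and the old sows had done so over many years. Age and past births therefore cannot be told apart here. Each sow gave 1 rRNA-depleted RNA-seq library, which holds the mRNAs and circRNAs, and 1 small RNA-seq library. Whole tissue was used, without selection of cells, no treatment is named, and no batch is named. The comparison asks whether the machinery that makes miRNAs and circRNAs differs between young and old livers, beside the miRNAs and circRNAs found in the same animals.

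A miRNA begins as a hairpin in a longer transcript. DROSHA and its partner DGCR8 form the microprocessor, which cuts the hairpin free in the nucleus. XPO5 carries it to the cytoplasm, DICER1 with the RNA-binding protein TARBP2 removes its loop, and an Argonaute protein such as AGO2 keeps one strand as the guide that silences target mRNAs. A circRNA forms when a splice donor is joined backwards to an acceptor that lies before it. QKI and MBNL1 bind introns and are known to bring such sites together, whereas the editing enzyme ADAR and the helicase DHX9 act on the paired repeats in flanking introns and are known to limit circRNA formation.

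The mRNA values are reads scaled to a library total that is not stated (CPM), without division by gene length, so levels are compared between livers and never between genes. The mRNA table holds between 22482241 and 37555696 reads per library, and each member had between 41 and 4178 reads in every library. Differences between the ages were fitted with limma on log2(CPM + 1), which understates the change of low genes. In all of these fits n was 2 sows per age, and SE is the standard error. A call needed an adjusted p-value under 0.05 and an absolute log2 fold change above 1. All 10 members were among the 16898 mRNAs tested, those above 0 in at least 2 libraries. Hepatocyte markers (7 of 8 with an identifier) summed to 47059 and 52652 CPM in young sows and to 32820 and 38838 in old sows. Single markers did not share one direction. Old replicate 1 was below both young livers for 4 of the 7 and above both for 2. For old replicate 2 these numbers were 4 and 1. No hepatocyte marker was at 0 in all 4 livers. In tissue RNA, fewer cells of a type and less RNA per cell cannot be told apart. One old liver, replicate 1, stands apart through high interferon-stimulated genes, so results are given with and without it where it matters.

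No member passed the test. The adjusted p-values of limma for the 10 members lay between 0.507 and 0.809, and 0% of all mRNAs tested were called. On average 8 members were lower and 2, ADAR and AGO2, were higher in old sows as deposited, with TARBP2 on the other side of 0 under TMM scaling. As deposited, 8942 of all 16898 mRNAs tested were lower on average, and 5871 of the 9790 with a mean of at least 1 CPM. No member had an unadjusted limma p-value under 0.05 (0 of 10), whereas 6.78% of all mRNAs were higher and 8.93% lower in old livers at that level. The exact test of edgeR on whole reads called 3.16% of all mRNAs (2.7% higher and 0.456% lower) and 0 members, and its quasi-likelihood test gave 14.6% of all mRNAs and 0 members an unadjusted p-value under 0.05. As deposited, the 2 age groups did not overlap for 3 members, AGO2 (higher in old livers, 24.4% of all mRNAs) and DICER1 and XPO5 (lower in old livers, 25% of all mRNAs). The separation of the members was thus no more frequent than that of mRNAs at large. Under TMM scaling AGO2 stayed separate, whereas the groups of DICER1 and of XPO5 overlapped.

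**Figure D1:**
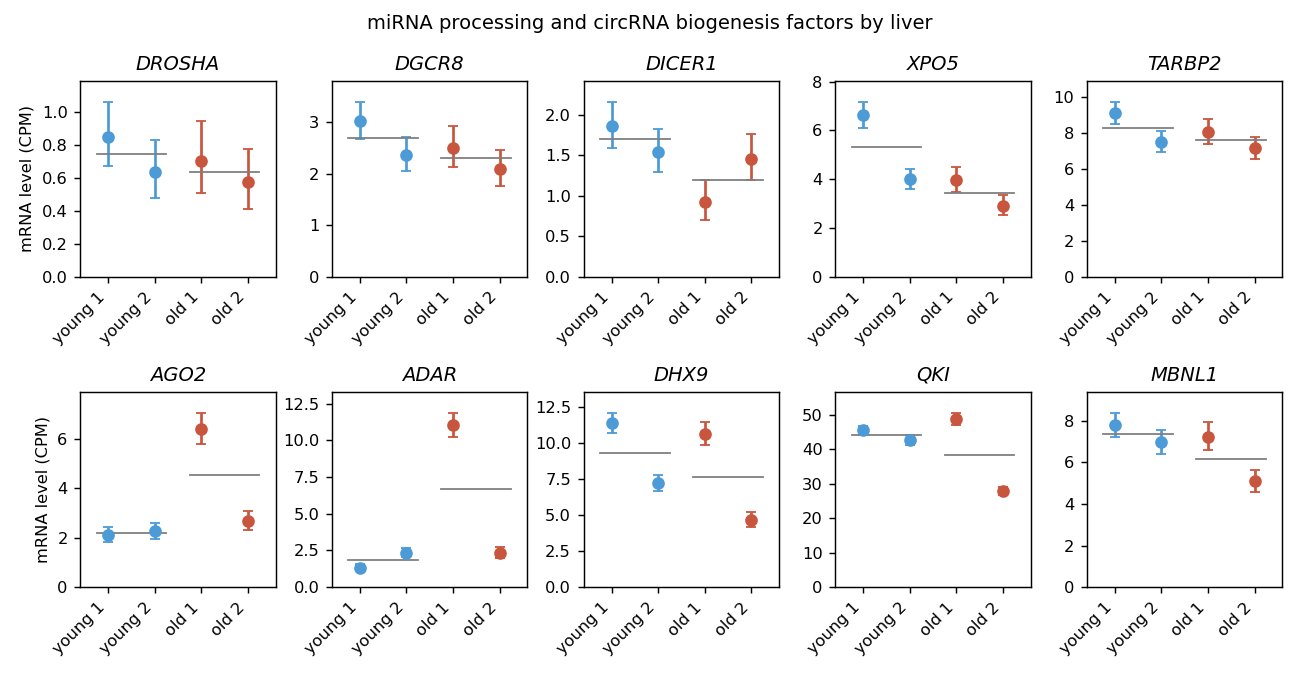
mRNA level in CPM (vertical axes, from 0) of each member in the 2 young livers (blue) and the 2 old livers (red), with points for single libraries, bars for 95% Poisson intervals, which cover counting error only, and grey lines for group means. ADAR at 11.0 and AGO2 at 6.40 CPM in old replicate 1 stand above the other 3 livers, and the old groups of DHX9 and QKI are spread wider than the young ones.

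For both subunits of the microprocessor the values of the young and old sows overlapped. DROSHA (ENSSSCG00000016809), the nuclease, had 0.849 and 0.635 CPM in young sows and 0.699 and 0.571 in old sows. These values rest on only 78, 55, 43 and 41 reads, and the groups overlap. Its log2 fold change was -0.09 ± 0.13 (SE, adjusted p = 0.805). DGCR8 (ENSSSCG00000010135), which holds the hairpin for DROSHA, had 3.02 and 2.37 CPM in young sows and 2.50 and 2.09 in old sows. The groups overlap again, with a log2 fold change of -0.16 ± 0.16 (SE, adjusted p = 0.701). The log2 fold change of DROSHA lay between -0.18 and -0.0011 and that of DGCR8 between -0.29 and -0.03 when 1 library was left out.

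XPO5 (ENSSSCG00000001679), the export receptor of the hairpins, had 6.62 and 3.99 CPM in young sows and 3.97 and 2.91 in old sows. As deposited, the groups are separate only by the margin between young replicate 2 and old replicate 1, whose 95% Poisson intervals of 3.58 to 4.43 and 3.48 to 4.50 overlap. Under TMM scaling the groups themselves overlap. Young replicate 1 was the high library. The log2 fold change was -0.48 ± 0.29 (SE, adjusted p = 0.530), and it was -0.18 without young replicate 1.

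DICER1 (ENSSSCG00000028225) had 1.86 and 1.55 CPM in young sows and 0.926 and 1.46 in old sows. Old replicate 1 was low, with 57 reads, while old replicate 2 was within the counting error of young replicate 2, as their 95% Poisson intervals overlap. The log2 fold change was -0.31 ± 0.19 (SE, adjusted p = 0.525), and without old replicate 1 it was -0.13. TARBP2 (ENSSSCG00000000276), the partner of DICER1, varied least in ratio among the 10 genes, from 7.11 to 9.06 CPM over the 4 livers, a ratio of 1.27. It was at 9.06 and 7.49 CPM in young sows and at 8.03 and 7.11 in old sows, with a log2 fold change of -0.11 ± 0.16 (SE, adjusted p = 0.790) that was 0.07 under TMM scaling.

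AGO2 (ENSSSCG00000005935), the Argonaute that can cut its targets, had 2.10 and 2.28 CPM in young sows and 6.40 and 2.69 in old sows. Old replicate 1 was thus 2.92 times the mean of young sows and old replicate 2 was 1.23 times that mean. The log2 fold change was 0.71 ± 0.41 (SE, adjusted p = 0.507), and it ranged from 0.21 without old replicate 1 to 1.22 without old replicate 2.

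ADAR (ENSSSCG00000006543), which edits adenosine to inosine in double-stranded RNA, had the widest range of the 10 genes. It was at 1.34 and 2.35 CPM in young sows (123 and 203 reads), at 11.0 in old replicate 1 (678 reads) and at 2.33 in old replicate 2 (167 reads). Old replicate 2 lay between young sows, so the age groups overlap and the high value belongs to a single old liver. The log2 fold change was 1.18 ± 0.76 (SE, adjusted p = 0.551), 0.25 without old replicate 1 and 2.10 without old replicate 2. The exact test of edgeR gave 2.05 with an unadjusted p-value of 0.036 and an adjusted p-value of 0.324, its quasi-likelihood test an adjusted p-value of 0.375 and DESeq2 one of 0.218. Of all mRNAs tested, 3.04% were like ADAR at least 3 times as high in old replicate 1 as in every other liver, and 2.34% of those with a mean of at least 1 CPM.

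DHX9 (ENSSSCG00000026806), the helicase that unwinds paired repeats, had 11.4 and 7.22 CPM in young sows and 10.6 and 4.68 in old sows. High and low livers occur in both ages, and the 4 values spread over a ratio of 2.44. Its log2 fold change of -0.31 ± 0.48 (SE, adjusted p = 0.809) was -0.83 without old replicate 1 and 0.21 without old replicate 2, so the direction depended on the liver left out.

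QKI (ENSSSCG00000004029), an intron-binding STAR protein, had 45.5 and 42.7 CPM in young sows and 48.9 and 28.0 in old sows. The old livers bracket the young ones, with old replicate 1 the highest and old replicate 2 the lowest of the 4. The log2 fold change was -0.25 ± 0.33 (SE, adjusted p = 0.777), -0.64 without old replicate 1 and 0.15 without old replicate 2. MBNL1 (ENSSSCG00000011720), a splicing regulator of the muscleblind family, had 7.80 and 6.97 CPM in young sows and 7.23 and 5.08 in old sows. Again old replicate 2 was the low library, and the log2 fold change was -0.24 ± 0.21 (SE, adjusted p = 0.653).

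**Figure D2:**
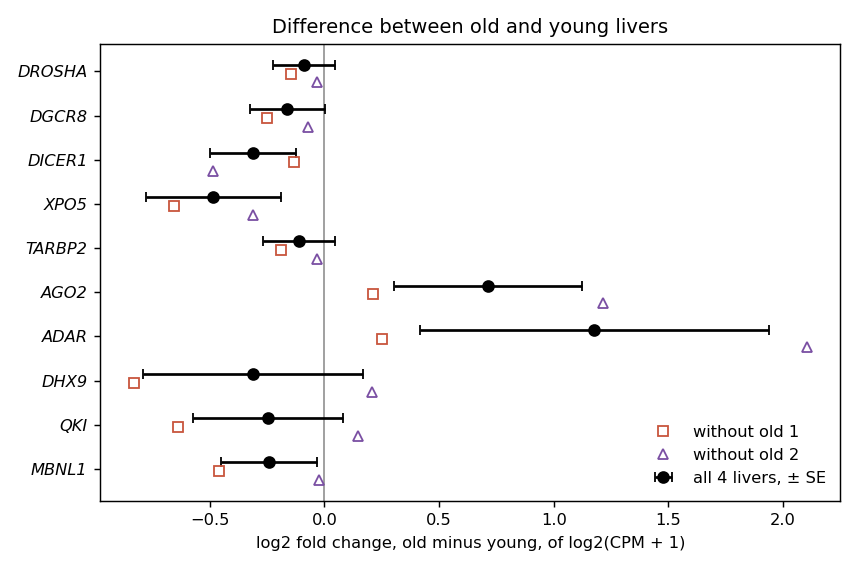
Log2 fold change of log2(CPM + 1), old minus young, for each member (horizontal axis). Black points are the limma estimates over all 4 livers with their standard errors, squares leave out old replicate 1 and triangles leave out old replicate 2. ADAR moves from 0.25 to 2.10 and AGO2 from 0.21 to 1.22 between the 2 ways of leaving out an old liver, and DHX9 and QKI cross 0.

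As deposited, many members shared an order of libraries. Young replicate 1 was the highest library for 7 of the 10 members and old replicate 2 the lowest for 7, while old replicate 1 was the highest for 3. Among mRNAs with a mean of at least 1 CPM, 31.4% were highest in young replicate 1, 23.3% were highest in old replicate 1 and 28.2% were lowest in old replicate 2. This order depended on scaling. Under TMM scaling TARBP2, DHX9 and MBNL1 were highest in old replicate 1 instead of young replicate 1. DROSHA and TARBP2 were then lowest in young replicate 2 instead of old replicate 2. The median log2 fold change of the members was -0.20, against -0.02 over all mRNAs tested and -0.15 over those with a mean of at least 1 CPM. TMM scaling raised old sows by 0.20 on the log2 scale relative to the young ones, and the median of the members was then -0.03, against 0.04 over all mRNAs tested. Apart from ADAR and AGO2, the members ranged from -0.48 to -0.09 as deposited and from -0.32 to 0.07 under TMM scaling.

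A ratio within a library does not depend on scaling. The log2 ratio of QKI to ADAR was 5.09 and 4.19 in young sows and 2.15 and 3.59 in old sows. The groups did not overlap, and the mean was lower by 1.77 in old sows on the log2 scale (-1.77). The 2 old livers reached low ratios in different ways. In old replicate 1 ADAR was high, at 11.0 CPM. In old replicate 2 QKI was low, at 28.0 CPM, and ADAR, at 2.33 CPM, lay between young sows. The share of other gene pairs with separate ratios was not computed. The exact two-sided permutation test gave p = 0.333, the smallest p that 2 against 2 livers allow. The difference was -1.05 without old replicate 1. Isoforms cannot be separated in these gene-level values, so the constitutive and the interferon-inducible forms of ADAR, and the nuclear and cytoplasmic forms of QKI, are counted together.

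ADAR is an interferon-stimulated gene, and its high library was the one in which interferon-stimulated genes were high. Of a list of 35 such genes, which does not include ADAR, 24 had an identifier. Their median of log2(CPM + 1) was 1.73 and 2.23 in young sows, 5.85 in old replicate 1 and 1.70 in old replicate 2, and all 24 were highest in old replicate 1. The difference between the ages in this median was 1.80, and without old replicate 1 it was -0.28. Among 6101 genes with a symbol and a mean of at least 1 CPM, the profiles nearest to that of ADAR over the 4 libraries were those of IFI35, an interferon-induced gene, at a Euclidean distance of 0.20 on the log2 scale, MAD2L2 at 0.21 and MZB1, a plasma cell gene, at 0.22. IFI35 had 10.9 and 13.1 CPM in young sows and 54.0 and 13.9 in old sows. Each of these profiles is highest in old replicate 1, which follows from their choice by closeness to ADAR. Of all mRNAs tested, 23.9% were highest in that liver.

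**Figure D3:**
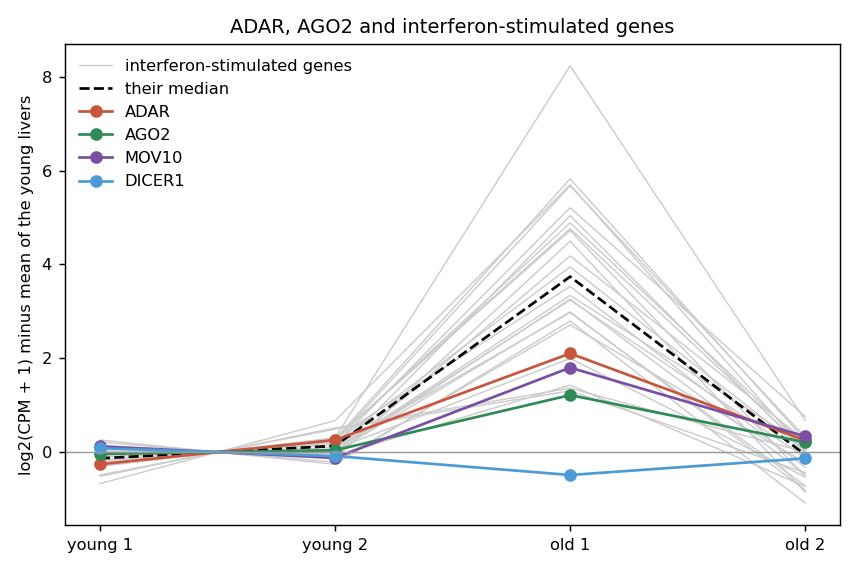
log2(CPM + 1) minus the mean of young sows (vertical axis) in the 4 livers, with lines joining the values of 1 gene. The median of 24 interferon-stimulated genes (dashed), ADAR, AGO2 and MOV10 peak in old replicate 1 and return near 0 in old replicate 2, where DICER1 is also near 0.

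Marker lists of other cells did not move one way in that liver. The summed level of 4 T and NK cell markers (of 6 listed) was 5.49 and 7.22 CPM in young sows, 16.4 in old replicate 1 and 9.29 in old replicate 2, and in old replicate 1 each of the 4 markers exceeded its values in both young sows. Endothelial markers (3 of 5) summed to 30.0 and 26.8 CPM in young sows and to 62.6 and 31.5 in old sows, but 1 of the 3 was lowest in old replicate 1. Macrophage markers (5 of 6) summed to 232 and 254 CPM in young sows and to 340 and 375 in old sows, with 4 of the 5 above both young livers in old replicate 1. Of the B and plasma cell markers (3 of 5), the sum was 2.31 and 4.51 CPM in young sows and 12.4 and 2.35 in old sows, of which MZB1 alone made up 11.4 CPM in old replicate 1, while the other 2 markers were highest in young replicate 2. Stellate cell and fibroblast markers (6 of 7) went the other way, with 19.2 and 38.5 CPM in young sows, 14.6 in old replicate 1 and 50.6 in old replicate 2, and 4 of the 6 below both young livers in old replicate 1. Skeletal muscle markers (3 of 8) summed to 0.904 and 0.242 CPM in young sows and to 0.081 and 2.33 in old sows. No marker of these lists was at 0 in all 4 livers. The part of these cells in the levels of ADAR and AGO2 was not tested.

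Beyond the members, 28 of 40 other genes of the miRNA pathway had an identifier and 27 were tested. None was called, 11 were higher and 16 lower on average in old livers, beside 8942 lower of all 16898 mRNAs tested. The median log2 fold change was -0.07, which turned to 0.09 under TMM scaling. At an unadjusted p-value under 0.05, 1 of the 27 was higher and 1 lower, against 6.78% and 8.93% of all mRNAs tested, so the list held no more such genes than mRNAs at large. KHSRP, which binds the terminal loop of some hairpins and favours their processing, had 1.83 and 1.05 CPM in young sows and 4.03 and 3.65 in old sows. KHSRP and CNOT7 were named by a rule that asks for separate groups, so their separation is part of the choice. The log2 fold change of KHSRP was 1.01 ± 0.22 (SE, adjusted p = 0.242). CNOT7, a deadenylase of the CCR4-NOT complex that acts on miRNA targets, had 11.6 and 11.8 CPM in young sows and 8.30 and 5.94 in old sows (log2 fold change -0.66, adjusted p = 0.291). MOV10, a helicase that binds Argonaute proteins, was picked out after its values were seen. It had 3.06 and 2.43 CPM in young sows and 12.0 and 3.70 in old sows, with old replicate 1 high as for AGO2 and ADAR, at a log2 fold change of 1.07 (adjusted p = 0.492) that was 0.33 without old replicate 1.

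Of 30 other factors that are known to act on circRNA formation, export or decay, 22 had an identifier and were tested. None was called, 8 were higher and 14 lower on average, beside 8942 lower of all 16898 mRNAs tested. The median log2 fold change was -0.12, with the median turning to 0.03 under TMM scaling. Of these 22, 1 was higher and 2 were lower at an unadjusted p-value under 0.05, which is close to the 6.78% and 8.93% of all mRNAs tested. ADARB1, the second active editing enzyme of the ADAR family, had 0.534 and 0.370 CPM in young sows and 0.877 and 0.919 in old sows. The log2 fold change of ADARB1 was 0.39 ± 0.13 (SE, adjusted p = 0.312). ADARB1, RIDA and DDX39B were named by a rule that asks for separate groups, so their separation is part of the choice. Of all mRNAs tested, 24.4% were separate and higher in old livers and 25% separate and lower. RIDA, an abundant liver deaminase that is also known to take part in the decay of methylated circRNAs, had 88.6 and 142 CPM in young sows and 26.9 and 49.8 in old sows (log2 fold change -1.59, adjusted p = 0.278). DDX39B, a helicase of RNA export, had 16.3 and 14.1 CPM in young sows and 11.4 and 10.6 in old sows (log2 fold change -0.43, adjusted p = 0.304).

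Beside these factors, the number of circRNAs differed widely between livers and the number of miRNAs hardly at all. Of 6366 listed circRNAs, 1348 and 834 were above 0 in young sows and 2712 and 4219 in old sows. Both old livers were above both young ones, and the old mean was 3.18 times the young mean. The depth behind the circRNA values is unknown, and its part in these numbers was not tested. Values in old sows reached lower, with a smallest value above 0 of 0.286 and 0.299 against 0.377 and 0.370 in young sows. Above 0.377 in every library, the numbers were 1270 and 814 in young sows and 1737 and 3014 in old sows. At a value of at least 1 they were 1014 and 757 in young sows and 588 and 1202 in old sows, so the groups overlapped and the ratio of the means was 1.01.

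The summed circRNA signal had no such order. It was 4407 and 4374 in young sows, 2935 in old replicate 1 and 5804 in old replicate 2. The 213 circRNAs above 0 in all 4 livers summed to 1844 and 2216 in young sows and to 906 and 1825 in old sows, which was 41.8% and 50.7% of the signal of the young libraries and 30.9% and 31.5% of the old ones. With 4 livers no correlation between the members and the circRNAs was computed, and the scaling of the circRNA values is not stated.

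**Figure D4:**
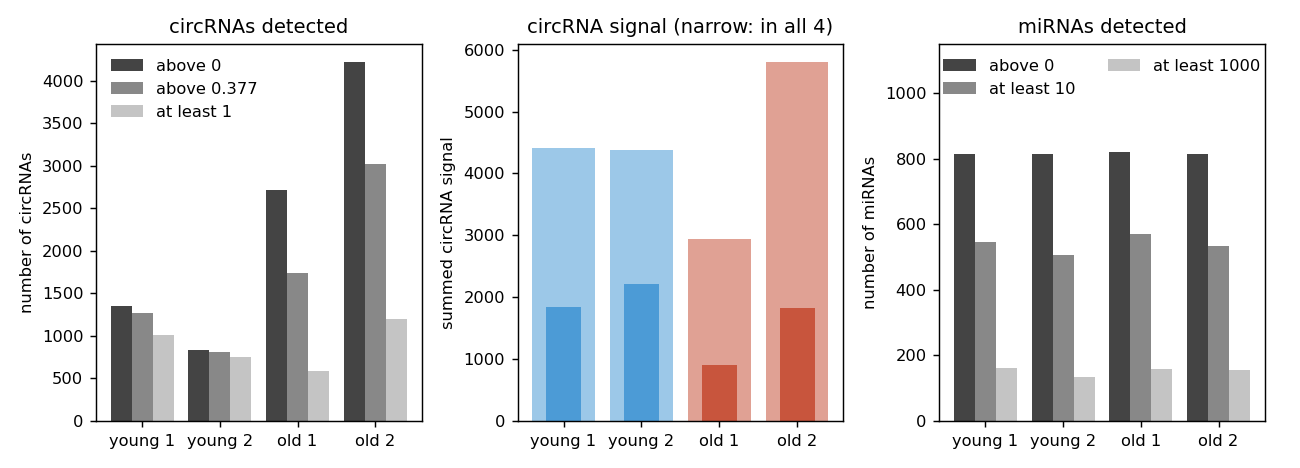
Left, number of circRNAs per liver above 0, above 0.377 (the highest of the 4 libraries' smallest values) and at a value of at least 1, and middle, summed circRNA signal per liver of all circRNAs (wide bars) and of the 213 found in all 4 livers (narrow bars). Right, number of miRNAs per liver above 0, at a value of at least 10 and of at least 1000, where all 4 livers lie between 813 and 821 above 0.

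Of the 888 listed miRNAs, 813 and 813 were above 0 in young sows and 821 and 814 in old sows, and 701 were above 0 in all 4. At a value of at least 10 the numbers were 546 and 505 in young sows and 570 and 535 in old sows. At a value of at least 1000 they were 160 and 135 in young sows and 158 and 154 in old sows. These 2 cuts depend on scaling. A single read was worth 0.962 in young replicate 2 and 1.14 to 1.33 in the other libraries, so a fixed value takes more reads in young replicate 2. The miRNA values are a normalised signal per library, and whole reads could be recovered from them. None of the 867 miRNAs tested was called by limma (0%), with 8.3% higher and 3.58% lower in old livers at an unadjusted p-value under 0.05.

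Some miRNAs skip a step of the pathway or are tied to a member gene, and 7 of 9 such miRNAs had at least 1 name in the table, 13 names in all, of which 12 were tested and 0 called. The ssc-miR-451 hairpin is cut by AGO2 without DICER1. It had a signal of 51177 and 22263 in young sows and of 31219 and 15594 in old sows, so the groups overlap as deposited, with a log2 fold change of -0.61 ± 0.70 (SE, adjusted p = 0.777). Under TMM scaling the groups were separate, at 44974 and 29217 in young sows against 28878 and 14617 in old sows. This separation rests only on the narrow margin between young replicate 2 and old replicate 1. As deposited, 16.1% of all miRNAs tested were separate and lower in old livers. With 1 library left out the log2 fold change of ssc-miR-451 ranged from -1.21 (without young replicate 2) to -0.013 (without young replicate 1). This miRNA is abundant in red blood cells, and the erythroid markers (3 of 5 listed) summed to 622 and 429 CPM in young sows and to 306 and 405 in old sows.

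Hairpins of miR-320 and miR-484 carry a cap and bypass DROSHA and DGCR8. The signal of miR-320a was 18420 and 12872 in young sows and 11160 and 22274 in old sows, with old sows on both sides of the young ones. The names miR-320b, miR-320c and miR-320d were lowest in old replicate 1, where miR-320c had 465 against 1601 and 1122 in young sows and 1085 in old replicate 2. As deposited, the groups of miR-320c (log2 fold change -0.91, adjusted p = 0.634) and miR-320d (-0.58, adjusted p = 0.761) were separate and lower in old livers. Of all miRNAs tested, 16.1% were separate in this direction. The groups of miR-320b (-0.63, adjusted p = 0.769) overlapped as deposited and were separate and lower in old livers under TMM scaling. The miR-320 names differ by few bases, so reads may have been split among them or counted more than once. The signal of miR-484 was 1137 and 812 in young sows and 1543 and 1242 in old sows, where the groups did not overlap (28.3% of all miRNAs tested were separate in this direction). Its log2 fold change was 0.53 ± 0.59 (SE, adjusted p = 0.772). Of the mirtrons, which are freed by splicing in place of the microprocessor, miR-877 and miR-1225 had no name in the table, and miR-1224-5p had at most 2 reads in any library.

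The hairpin of miR-1306 lies within the DGCR8 transcript and is cut out by the microprocessor itself. The signal of ssc-miR-1306-5p was 159 and 176 in young sows and 310 and 412 in old sows. Both old livers were above both young ones, as for 28.3% of all miRNAs tested. The log2 fold change was 1.09 ± 0.59 (SE, adjusted p = 0.517). It stayed between 0.89 and 1.29 with 1 library left out and was 0.89 under TMM scaling. The other arm, miR-1306-3p, had 147 and 97.2 in young sows and 88.7 and 137 in old sows, and its groups overlap. The ratio of the 5p to the 3p arm, which does not depend on scaling, was 1.08 and 1.81 in young sows and 3.50 and 3.01 in old sows. How many other arm pairs have separate ratios was not computed. The exact two-sided permutation test of this log2 ratio gave p = 0.333, the smallest p the design allows. DGCR8 mRNA itself overlapped between the ages.

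The related miRNAs miR-103 and miR-107 are known to target DICER1. The signal of miR-103a-3p was 179095 and 126967 in young sows and 132274 and 122829 in old sows, and that of ssc-miR-107 was 28414 and 18423 in young sows and 29354 and 23447 in old sows. Both pairs of groups overlap as deposited, whereas under TMM scaling those of miR-103a-3p were separate, at 157387 and 166629 in young sows against 122355 and 115136 in old sows. As deposited, 16.1% of all miRNAs tested were separate and lower in old livers. Under TMM scaling this share was not computed, so the separation of miR-103a-3p cannot be set against it. The log2 fold changes were -0.24 for miR-103a-3p (adjusted p = 0.902) and 0.20 for ssc-miR-107 (adjusted p = 0.924), and -0.45 and -0.0084 under TMM scaling, which lowered old sows by 0.21 relative to the young ones on the log2 scale (-0.21). The opposite signs of these nearly identical sequences lie within their errors. In old replicate 1, where DICER1 mRNA was lowest, ssc-miR-107 was highest both as deposited and under TMM scaling, and miR-103a-3p was not. A relation between them was not tested.

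**Figure D5:**
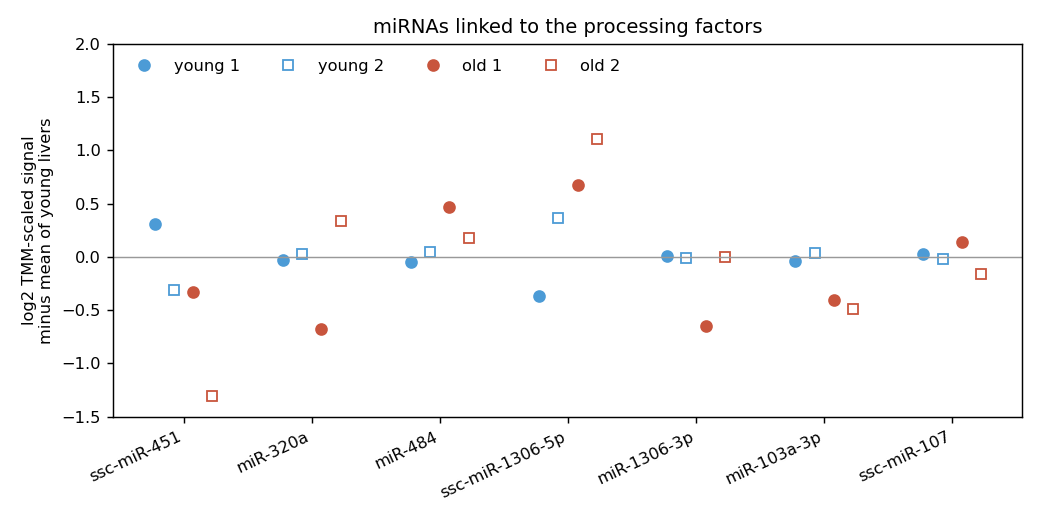
Log2 TMM-scaled signal minus the mean of young sows (vertical axis) of 7 miRNA names in the 2 young (blue) and 2 old (red) livers, filled for replicate 1 and open for replicate 2. Both old livers lie above both young ones for ssc-miR-1306-5p and miR-484, and below both for ssc-miR-451 and miR-103a-3p. Those of miR-320a lie on either side.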

How the data were processed

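RNA-seq (young and old, 2 libraries each) and small RNA-seq (the same sows) of liver were used. Per the study's methods and the submitters' processing notes, clean reads were aligned to Sscrofa10.2 with TopHat2 2.0.14 and assembled with StringTie 1.2.3, and values named TPM came from Salmon 0.6.0. As deposited, mRNA values are CPM: for every library 100% of values came out as whole reads at a fixed worth per read, within 0.0005. The deposited miRNA signal (mirdeep2, miRBase21) gave whole reads for 99.877% to 100% of values per library, summing to between 11661943 and 14139461 per library over names that partly repeat each other. The deposited circRNA signal (CIRCexplorer2, at least 2 junction reads) is scaled in a way not stated in the sources used here.

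Python 3.11.15 (numpy 2.4.6, pandas 2.3.3, scipy 1.17.1, matplotlib 3.10.9) and, in R 4.3.3, limma 3.58.1, edgeR 4.0.16 and DESeq2 1.42.0 were used. Old and young livers were compared with limma on log2(value + 1) for features with 2 or more libraries above 0 and Benjamini-Hochberg adjustment across each table. The scripts were tested on simulated counts with less spread between replicates than these data, whose common dispersion in edgeR was 0.462. That simulation therefore does not show how often changes are missed here. Alternatives covered pseudocount, filter, TMM scaling, trend, a replicate block, count tests on whole reads and leaving out each library. Named genes were all members, up to 3 per direction and list with the smallest unadjusted p-value under 0.05 and separate groups, the 3 profiles nearest to the member with the widest range, and all names of the listed miRNAs. The members and lists were chosen with earlier results of these data known. Symbols came from the reference table of gene names. Intervals cover counting error only. The replicates are separate sows. lncRNAs, circRNAs at the loci of the members, promoters and sequences were not analysed here.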

Additional observations from a re-analysis of the deposited data

How the results depend on the processing

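With 2 livers per age, no result here passed the limma test, and the number of called members and of called genes in both pathway lists was 0 under every alternative run, count tests included. Over all mRNAs, 0 were called by limma, 2 with a filter on a mean of at least 1, 880 by DESeq2, 534 by the exact test of edgeR and 0 by its quasi-likelihood test (14.6% at an unadjusted p-value under 0.05). Of the miRNAs, 16 were called with a filter on a mean of at least 10, 26 by the exact test of edgeR and between 0 and 36 with 1 library left out (22 without old replicate 1 and 36 without old replicate 2). The cause was not tested. The replicate numbers do not pair the animals (correlation of deviations 0.09 for mRNAs and -0.02 for miRNAs), and with a replicate block 0 mRNAs, 0 members and 0 miRNAs were called.

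Detection at a value of at least 1 moved the ratio of old to young from 3.18 to 1.01 for circRNAs and from 1.01 to 1.05 for miRNAs. For miRNAs this cut removed names only in young replicate 2 (813 to 747), where a single read was worth 0.962. In the other libraries a single read was worth 1.14 to 1.33, so the cut removed none there. The move for miRNAs thus reflects the scaling of young replicate 2. With 1 library left out the ratio of circRNAs above 0 lay between 2.49 and 4.16. The difference in log2 QKI to ADAR lay between -2.49 and -1.05, and that in the median of interferon-stimulated genes between -0.28 and 3.88.

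The sign of small fold changes, none of them called, depended on the setting. TARBP2 was 0.068 under TMM scaling, 0.0754 in the exact test of edgeR, 0.0754 in its quasi-likelihood test and 0.052 in DESeq2, and -0.23 to 0.012 with 1 library left out. QKI was 0.0036 in the exact and 0.0037 in the quasi-likelihood test, and -0.64 to 0.15 with 1 library left out, where DHX9 was -0.83 to 0.21. Of the miRNAs, under TMM scaling miR-320a was -0.17, miR-1224-5p -0.063, miR-103a-2-5p -0.075 and ssc-miR-107 -0.0084, and in both edgeR tests miR-320a was -0.084, miR-1224-5p -0.15 and ssc-miR-107 -0.00050. With 1 library left out, miR-320a ranged from -0.46 to 0.53, miR-320b from -1.32 to 0.072, miR-1224-5p from -0.67 to 0.98, miR-1306-3p from -0.43 to 0.19, miR-103a-3p from -0.49 to 0.0056, miR-103a-2-5p from -0.67 to 0.88 and ssc-miR-107 from -0.12 to 0.51.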

Other observations

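Selection between the arms of a hairpin, which Argonaute loading decides, could be read within each library. For 79 pairs of names that list both arms and have a mean signal of at least 10, the 5p arm was the more abundant in 41 and the 3p arm in 38. The less abundant arm held a median of 2.37% and 2.34% of the signal of the pair in young sows and 3.07% and 2.57% in old sows. The more abundant arm was not the same in all 4 livers for 7 of the 79 pairs. This summary was added after values had been seen, and it was not tested.

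Of the circRNAs above 0 in a liver, 39.8% and 35.0% were found in no other liver for the young sows, and 43.3% and 59.2% for old replicates 1 and 2.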
